A study of Mus musculus with 4 samples.

Results

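The antioxidant genes of mouse liver under the control of, or working beside, the transcription factor NRF2 were followed after an overdose of acetaminophen (APAP). They are 42 genes taken by name from the glutathione and thioredoxin systems, the supply of NADPH, the peroxide- and superoxide-removing enzymes and the NRF2 pathway. No cut on their values was used, but the list was chosen with earlier results of these data known. All 42 were found among the 27027 entries of the count table. Livers came from male C57BL/6 mice (C57BL/6J by the study's methods), 9 to 12 weeks old and without a genetic change, which had all gone without food for 10 h before the injection. Control mice received NaCl solution, the vehicle, and the other mice received APAP at 300 mg/kg, all into the peritoneum. Livers were perfused with buffer and taken after 24 h or 48 h. RNA of 6 mice went into each control pool and RNA of 7 mice into each APAP pool, and each of the 4 pools gave 1 library of 3′ mRNA reads.

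NRF2 (gene Nfe2l2) is held in the cytosol and sent to degradation by KEAP1, whose reactive cysteines sense electrophiles and oxidants. When KEAP1 is modified, NRF2 accumulates, pairs with a small MAF protein and binds antioxidant response elements in front of genes for glutathione synthesis, thioredoxin reduction, quinone reduction and heme breakdown. APAP is a textbook trigger in liver, because its quinone imine metabolite consumes glutathione and binds protein cysteines.

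The libraries held between 4859661 and 5698778 reads on genes. Counts were divided by size factors and are given as normalized reads, always with 24 h before 48 h and the vehicle pools before the APAP pools. A fold is the ratio of normalized reads, and its 95% interval is exact and covers counting error only. With 1 library per pool there was no replicate check, the differences between mice were not seen, and no p-value is given. A gene is called higher or lower when its fold is at least 2 and its interval leaves out 1. Folds were judged where the mean over the 4 libraries was 10 normalized reads or more, which held for 12113 genes and for 39 of the 42 antioxidant genes. Ggt1, Gpx2 and Cbr3 did not reach this mean, and Slc7a11, at a mean of 10.2, reached it through its APAP pools, so it could be judged only because it was high there.

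At 24 h, 7 of the 39 genes were called higher in the APAP pool (Srxn1, Slc7a11, Gss, Akr1b8, Gpx3, Hmox1 and Osgin1), against 4.89% of all genes judged. Called lower were 2 of the 39 (Cat and Gpx1), against 4.99% of all genes. At 48 h, 4 genes were called higher (Slc7a11, Gss, Hmox1 and Gpx3), against 4.79%, and the same pair, Cat and Gpx1, was called lower, against 4.99%. The median log2 fold of the 39 genes was 0.06 at 24 h and -0.04 at 48 h, beside 0.01 and -0.02 over all genes judged. As a group the antioxidant genes were centred near the transcriptome, with sulfiredoxin, glutathione synthetase and heme oxygenase among the genes above it and catalase and Gpx1 below it. Without Slc7a11, which its APAP pools let pass, the calls were 6 of 38 at 24 h and 3 of 38 at 48 h, and the shares over all genes include such genes too. The summed reads of the 42 genes made up 0.901% and 0.925% of all reads under vehicle and 0.834% and 0.804% after APAP.

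**Figure D1:**
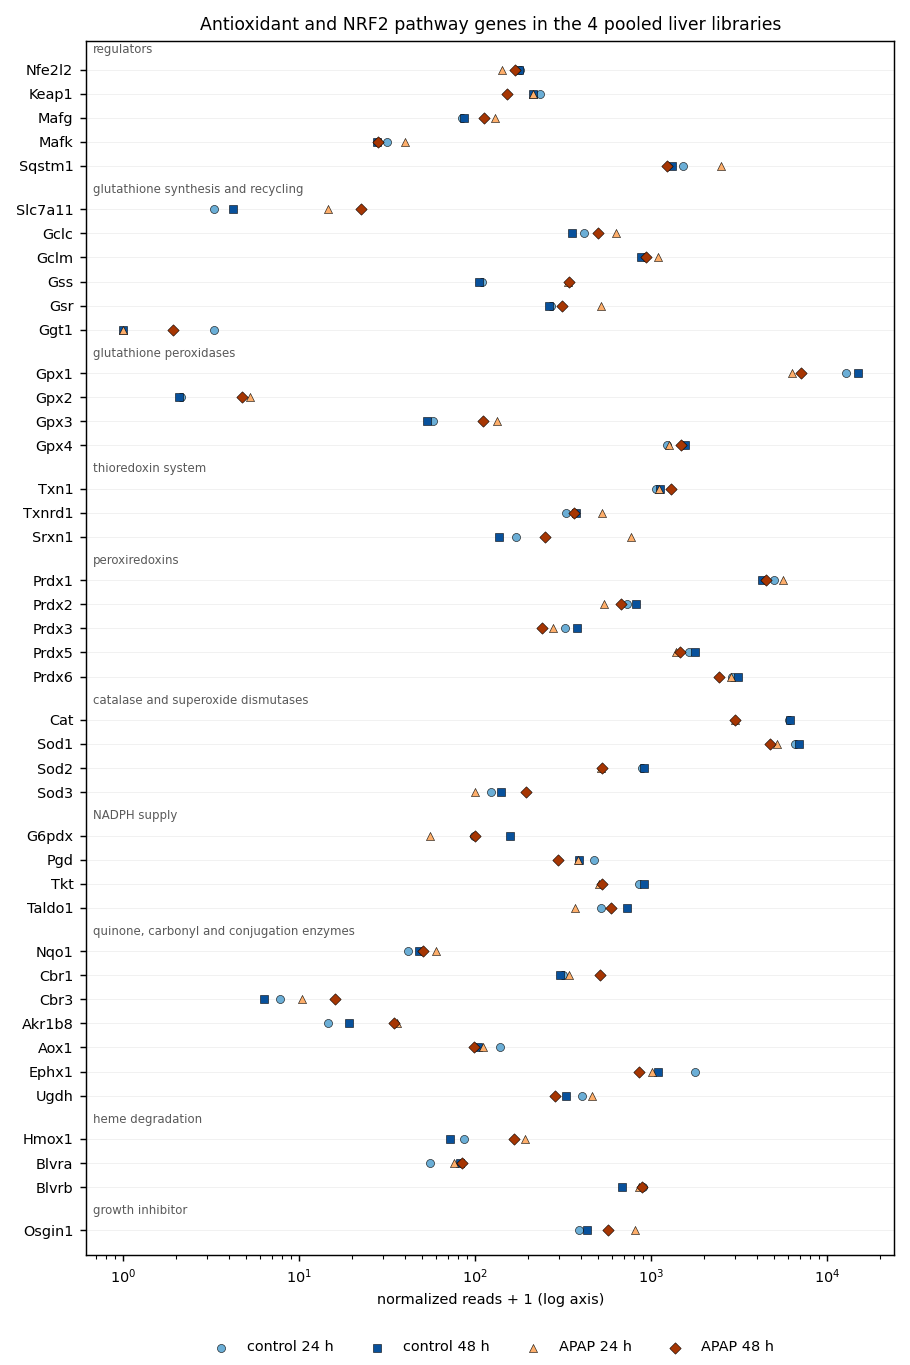
Normalized reads plus 1 (log axis) of the 42 antioxidant and NRF2 pathway genes, grouped by role, with 1 symbol for each of the 4 pooled libraries. Both APAP symbols lie to the right of both control symbols for Slc7a11, Gss, Gpx3, Srxn1 and Hmox1, and to the left for Gpx1, Cat and Sod2.

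Both APAP pools were above both control pools for 13 of the 39 genes (24.8% of all genes judged were so ordered) and below both for 12 (26.3% of all genes). These shares of members, like those of all genes, describe the order of 4 libraries and say nothing of its size. All 5 judged genes of glutathione synthesis and recycling were among the 13. Slc7a11, one of these, was judged only through its high APAP pools, so its place among the 13 carries no weight. Among the 12 were 4 of the 5 peroxiredoxins and 3 of the 4 genes for catalase and the superoxide dismutases. With library totals 19 lay above (44.2% of all genes) and 6 below (13.7%), the 6 being Cat, Gpx1, Prdx3, Sod1, Sod2 and Tkt. Between the control pools none of the 39 genes was called higher or lower at 48 h. This is near the shares over all genes, 1.77% and 1.44%. The size of fold of the 39 genes between the control pools had a median of 1.14 and reached 1.63, in Ephx1. Use of the control pool of the other time changed 3 calls at 24 h and 5 at 48 h. It turned the direction of 6 genes at 24 h and 7 at 48 h.

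Some of these genes carry in their promoters the letters of an antioxidant response element, the DNA letters that NRF2 and its MAF partner bind. The promoters were those of RefSeq (GRCm38.p6), from 250 bases before to 50 bases after the start site, and 37 of the 42 genes had an entry. TGACNNNGC or TGAGNNNGC, searched on both strands, was present for 17 of the 37, beside 30.8% of the 27025 genes in the table of promoters. TGAGTCAGC or TGACTCAGC, a narrower form whose first letters are also those of an AP-1 site, was present for 3 of the 37 (Srxn1, Osgin1 and Prdx1), beside 0.929% of all genes. The 3 genes with the narrow form are shown with Txnrd1 and Slc7a11, which hold the wider form and turn up again among the responses. In these stretches of 30 bases, written 5′ to 3′ on the strand of the gene, capitals mark the match.
Srxn1, chr2:152105469-152105498, plus strand: aaattcacccTGAGTCAGCggccgggcgcg
Osgin1, chr8:119437038-119437067, plus strand: aggggcccctGCTGACTCAcgcttatgaaa
Prdx1, chr4:116685456-116685485, plus strand: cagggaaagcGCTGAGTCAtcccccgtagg
Txnrd1, chr10:82859104-82859133, plus strand: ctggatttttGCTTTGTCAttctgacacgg
Slc7a11, chr3:50443691-50443720, minus strand: taatgttggcGCTTTCTCAagctggagttt
The match began 45 bases before the start site of the promoter entry in Srxn1, 99 in Osgin1, 133 in Prdx1, 92 in Txnrd1 and 97 in Slc7a11. It lay on the opposite strand in all but Srxn1. A gene can have several entries, with 32851 entries for the 27025 genes. The entries matched in Txnrd1 and Osgin1 lie inside the genes, downstream of the annotated gene starts at chr10:82833951 and chr8:119434124. A match is a run of letters and no measured binding, and these libraries did not measure NRF2 on DNA.

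Among the regulators, Nfe2l2 itself (GRCm38 chr2:75675513-75704641, minus strand) had 179.6 and 176 normalized reads under vehicle and 142 and 167 after APAP. Its APAP values were slightly under those of the controls, with folds of 0.792 (95% interval 0.633 to 0.991) and 0.949 (0.763 to 1.18). The mRNA of NRF2 was thus not called at either time, and with library totals its folds came to 0.901 and 1.14. Keap1, the gene of its repressor, had 234 and 212 normalized reads under vehicle and 214 and 151 after APAP. Its APAP pool at 48 h was the lowest of the 4, at a fold of 0.711 (0.574 to 0.880). Library totals raise folds by a factor of 1.14 at 24 h and 1.20 at 48 h. With them the upper bounds of Nfe2l2 at 24 h and of Keap1 at 48 h lie above 1. Mafg and Mafk encode small MAF partners. Mafg had 83.0 and 85.8 normalized reads under vehicle and 129 and 112 after APAP, with folds of 1.56 (1.17 to 2.09) and 1.30 (0.972 to 1.75), and its last bases are shared with an overlapping transcript of Sirt7 on the same strand, so its reads are uncertain. Mafk had 30.7, 26.8, 39.2 and 27.2 normalized reads and folds of 1.28 and 1.01, both with intervals that hold 1. Its end overlaps an exon of Tmem184a on the other strand.

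Sqstm1 encodes p62, an autophagy receptor that binds KEAP1 and is itself an NRF2 target. It had 1514 and 1308 normalized reads under vehicle and 2486 and 1232 after APAP. The APAP pool at 24 h stood alone above the other 3 libraries, with folds of 1.64 (95% interval 1.54 to 1.75) and 0.942 (0.871 to 1.02). Between the APAP pools it was called lower at 48 h, at 0.496 (0.464 to 0.529) of the level at 24 h, and with library totals the ratio was 0.519 (0.486 to 0.555) and the call was lost. Its end overlaps an exon of Mrnip on the other strand, and whether reads were counted by strand is not given in the sources used here.

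Glutathione is built from cysteine, glutamate and glycine. Slc7a11, the cystine importer xCT (GRCm38 chr3:49892526-50443614, minus strand), was almost silent in the control livers, with 2 and 3 reads, and had 16 and 23 reads in the APAP pools. Per normalized read the ratio was 5.99 (95% interval 1.41 to 53.7) at 24 h and 6.70 (2.03 to 34.9) at 48 h, so that both APAP pools were above both control pools with intervals too wide to fix the size. Its entry in the table joins 2 overlapping gene identifiers. Gclc and Gclm, the catalytic and modifier subunits of the rate-limiting enzyme, had smaller folds. Gclc had 416 and 353 normalized reads under vehicle and 631 and 501 after APAP and folds of 1.52 (1.34 to 1.72) and 1.42 (1.23 to 1.63), both intervals above 1 and both folds under the threshold. Gclm had 922 and 872 normalized reads under vehicle and 1096 and 934 after APAP and folds of 1.19 (1.09 to 1.30) and 1.07 (0.976 to 1.18).

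Gss, glutathione synthetase, which adds glycine in the last step (GRCm38 chr2:155563181-155592810, minus strand), was the clearest and most even of the higher genes. It had 109 and 105 normalized reads under vehicle and 336 and 342 after APAP. The control pools were nearly equal to each other, as were the APAP pools, and the groups did not come near each other. Its folds were 3.07 (95% interval 2.45 to 3.88) at 24 h and 3.26 (2.60 to 4.11) at 48 h. Gsr, which reduces oxidized glutathione with NADPH, had 268 and 263 normalized reads under vehicle and 521 and 312 after APAP. It stood highest in the APAP pool at 24 h, just under the threshold at 1.94 (1.67 to 2.27), and was at 1.19 (1.005 to 1.41) at 48 h. Ggt1, gamma-glutamyltransferase, had 0 to 2 reads in every library, which is under the 3 reads taken as the limit of detection.

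The glutathione peroxidases went apart. Gpx1, the abundant cytosolic enzyme (GRCm38 chr9:108338903-108340343, plus strand), had 12825 and 14917 normalized reads under vehicle and 6349 and 7079.8 after APAP. Both APAP pools were far below both controls, at folds of 0.495 (95% interval 0.481 to 0.510) and 0.475 (0.461 to 0.488), a narrow interval at the edge of the threshold, and the fold at 48 h was 0.552 against the control pool of 24 h, without a call. Gpx3, the secreted plasma peroxidase (GRCm38 chr11:54902453-54910377, plus strand), had 56.8 and 52.5 normalized reads under vehicle and 132 and 111 after APAP. It was called higher at both times, with folds of 2.32 (1.68 to 3.26) and 2.11 (1.497 to 3.002) and no overlap between the groups, although against the control pool of 24 h the fold at 48 h was 1.95 and not called. Gpx4, which reduces lipid hydroperoxides, had 1238 and 1558 normalized reads under vehicle and 1256 and 1487 after APAP and folds of 1.01 (0.938 to 1.10) and 0.955 (0.888 to 1.03). Reads of Gpx4 can be exchanged with Gpx4-ps2, which is 99.7% identical over the last 300 bases, and with the reads of both summed the folds were 1.0003 and 0.913. Gpx2 had 1 read in each control pool and 5 and 4 in the APAP pools, too few for a fold to be judged.

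In the thioredoxin system Srxn1 stood out. Sulfiredoxin restores peroxiredoxins whose cysteine has been over-oxidized (GRCm38 chr2:152105516-152111376, plus strand). It had 171 and 135 normalized reads under vehicle and 769 and 248 after APAP. The APAP pool at 24 h was far above the other 3, and the APAP pool at 48 h lay between it and the controls. The fold was 4.51 (95% interval 3.79 to 5.40) at 24 h, the highest of the genes with more than 3 reads in each pool, and 1.83 (1.48 to 2.28) at 48 h, where it was not called, although with library totals it came to 2.20 (1.78 to 2.75) and was called. Txnrd1, cytosolic thioredoxin reductase, had 329.7 and 372 normalized reads under vehicle and 526 and 363 after APAP. It too was highest in the APAP pool at 24 h, at 1.597 (1.39 to 1.84), while at 48 h the APAP pool lay between the control pools, at 0.975 (0.842 to 1.13). Txn1, thioredoxin, had 1073, 1123, 1116 and 1294 normalized reads and folds of 1.04 and 1.15.

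The 5 peroxiredoxins, which reduce peroxides with electrons from thioredoxin or, for Prdx6, from glutathione, gave no call. Prdx1, the member with the narrow element in its promoter, had 4968 and 4279 normalized reads under vehicle and 5635 and 4519 after APAP and folds of 1.13 (1.09 to 1.18) and 1.06 (1.01 to 1.10). Prdx2 had 729.9, 825, 539 and 674 normalized reads and Prdx5 had 1647, 1771, 1389 and 1455 normalized reads, and both were below the controls at both times, at folds from 0.739 to 0.843. The mitochondrial Prdx3 had 323, 378, 275 and 240.0 normalized reads and folds of 0.852 (0.724 to 1.003) and 0.634 (0.538 to 0.747). Prdx6 had 2865, 3116, 2844 and 2428 normalized reads, with folds of 0.993, which turns above 1 with TMM or library totals, and 0.779 (0.739 to 0.822). Prdx1 and Prdx2 have processed copies that are 98.7% and 97.7% identical at the 3′ end, and summing the reads left their folds at 1.12 and 1.05 and at 0.724 and 0.813. The end of Prdx2 also overlaps an exon of Junb on the other strand.

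Catalase and the superoxide dismutases, which work without glutathione or thioredoxin, were mostly below 1. Cat (GRCm38 chr2:103453849-103485160, minus strand) had 6109 and 6180.1 normalized reads under vehicle and 3011 and 2993 after APAP. The APAP pools were nearly equal to each other and near to 0.5 of the controls, at 0.493 (95% interval 0.472 to 0.514) and 0.484 (0.464 to 0.506). Sod2, the mitochondrial manganese enzyme, had 882 and 908 normalized reads under vehicle and 521 and 524 after APAP and folds of 0.591 (0.531 to 0.658) and 0.577 (0.518 to 0.643). Sod1, the cytosolic enzyme, had 6613 and 6959.6 normalized reads under vehicle and 5162 and 4741 after APAP and folds of 0.781 (0.753 to 0.809) and 0.681 (0.657 to 0.707). Both were below the controls in both APAP pools and neither reached the threshold. Sod3, the secreted enzyme, was the exception, with 123 and 140.5 normalized reads under vehicle and 98.8 and 195 after APAP and folds of 0.805 (0.614 to 1.06) and 1.39 (1.11 to 1.74). Sod1 has a processed copy, Gm8566, with which its folds were 0.761 and 0.690, and the end of Sod2 holds a repeat found in other transcripts.

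**Figure D2:**
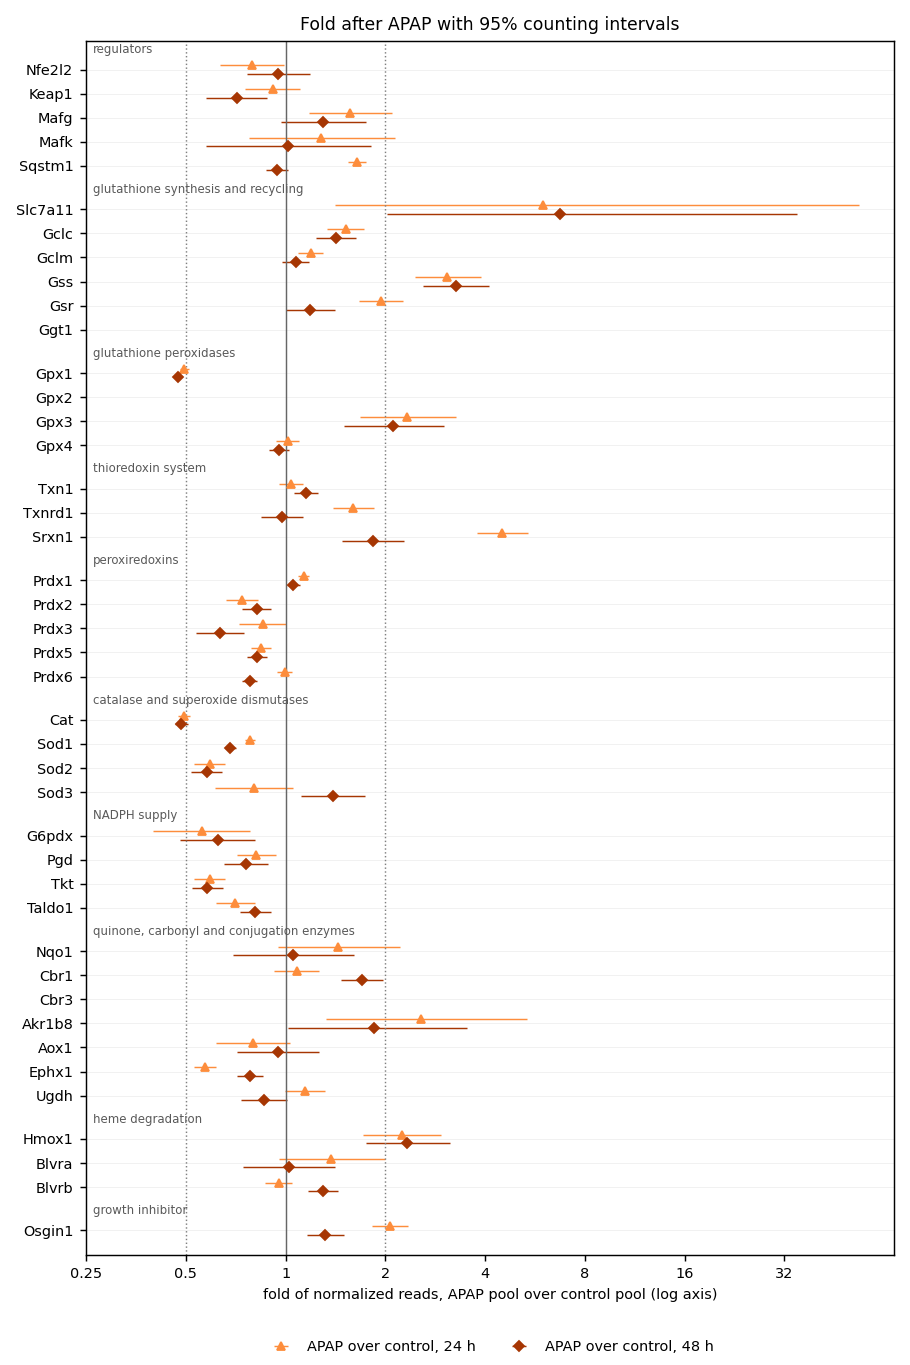
Fold of normalized reads, APAP pool over control pool of the same time (log axis), for the 39 genes judged, with bars for the 95% counting interval, a line at 1 and dotted lines at 0.5 and 2. Triangles (24 h) and diamonds (48 h) lie close together for Gss, Gpx3, Hmox1, Gpx1 and Cat and apart for Srxn1, Sqstm1, Gsr, Txnrd1 and Sod3.

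The calls of Cat and Gpx1 rest on the scaling. With TMM normalization the folds at 24 h were 0.501 for Cat and 0.504 for Gpx1 and neither was called, and with library totals they were 0.561 and 0.564 at 24 h and 0.582 and 0.571 at 48 h, without a call, since library totals raise every fold by a factor of 1.14 at 24 h and 1.20 at 48 h. Both genes stayed below 1 under each of these scalings. Beside these genes stand markers of pericentral hepatocytes, the zone in which APAP is activated. Called lower were 6 of 8 of these markers at 24 h, with Glul but not Cyp2e1 among them, and 7 of 8 at 48 h, with both among them. Their reads, scaled to library totals (RPM), summed to 3391 and 3727 under vehicle and 1533 and 1389 after APAP. Their part in the lower values was not tested, and in whole liver fewer cells of a type and less RNA per cell cannot be told apart. Markers shared by all hepatocytes, with albumin among them, summed to 81711 and 83073 RPM under vehicle and 84879 and 98474 after APAP, with 1 of 7 called higher at 24 h and none lower. On normalized reads their median log2 fold was -0.20 at 24 h and -0.05 at 48 h, with 4 and 5 of the 7 below 1. Markers of periportal hepatocytes summed to 5268 and 6392 RPM under vehicle and 4264 and 6504 after APAP, with 3 of 9 called lower and 1 higher at 24 h and 1 lower and 1 higher at 48 h. Of all genes judged, 4.89% were called higher and 4.99% lower at 24 h, and 4.79% and 4.99% at 48 h. In marker lists this short, a count of 1 is near these shares.

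NADPH feeds both glutathione reductase and thioredoxin reductase. The pentose phosphate pathway is a source of it, though not every enzyme of the pathway makes NADPH. All 4 members from this pathway were below 1 at both times, and none was called. G6pdx, the entry enzyme, had 97.8 and 158 normalized reads under vehicle and 54.5 and 98.4 after APAP and folds of 0.558 (0.397 to 0.780) and 0.625 (0.482 to 0.808), although it also differed between the control pools by 1.61-fold. Against the control pool of 48 h its fold at 24 h was 0.346 and against both summed 0.424, both called lower, and against the control pool of 24 h its fold at 48 h was 1.01. Tkt, transketolase, had 853 and 907 normalized reads under vehicle and 503 and 527 after APAP and folds of 0.589 (0.528 to 0.657) and 0.581 (0.521 to 0.647). Pgd had folds of 0.816 and 0.759 and Taldo1 of 0.705 and 0.810, the latter 1.14 against the control pool of 24 h. For Pgd and Tkt both APAP pools were below both control pools.

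Among enzymes that reduce or conjugate quinones and carbonyls the response was uneven. Nqo1, the quinone reductase often used as a readout of NRF2, had 40.9 and 47.2 normalized reads under vehicle and 58.8 and 49.7 after APAP. Both APAP pools were above the controls by little, at 1.44 (95% interval 0.946 to 2.21) and 1.05 (0.693 to 1.61), and with 36 to 69 reads a library neither fold could be told from 1. Akr1b8, an aldo-keto reductase, had 13.6 and 18.2 normalized reads under vehicle and 34.9 and 33.8 after APAP, and was called higher at 24 h at 2.56 (1.32 to 5.35) and stood at 1.85 (1.01 to 3.52) at 48 h. Against the control pool of the other time these were 1.92, not called, and 2.47, called. Cbr1, carbonyl reductase, had 316 and 302 normalized reads under vehicle and 342 and 515 after APAP and was highest at 48 h, at 1.08 (0.925 to 1.26) and then 1.70 (1.47 to 1.97). Its neighbour in function Cbr3 had 6 and 5 reads in the controls and 11 and 16 in the APAP pools. Ephx1, microsomal epoxide hydrolase, had 1775 and 1089 normalized reads under vehicle and 1011 and 849 after APAP and folds of 0.570 (0.528 to 0.615) and 0.780 (0.712 to 0.854), with the control pools themselves at 0.614. With the control pools exchanged its folds were 0.928 and 0.479, the latter called lower. An exon of Gm36961 on the same strand overlaps the last 300 bases of Ephx1, so its reads are uncertain. Aox1 had folds of 0.799 and 0.947 and Ugdh, which makes UDP-glucuronic acid, 1.14 and 0.860.

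Hmox1, the inducible heme oxygenase HO-1 (GRCm38 chr8:75093621-75100589, plus strand), had 85.3 and 70.8 normalized reads under vehicle and 191 and 165 after APAP. Both APAP pools were above both controls by a like factor, with folds of 2.24 (95% interval 1.72 to 2.95) and 2.33 (1.75 to 3.14). Against the control pool of 24 h the fold at 48 h was 1.94 and the call was lost. Heme oxygenase is also made by macrophages. The summed markers of macrophages and monocytes were 195 and 197 RPM under vehicle and 297 and 472 after APAP. Called higher were 4 of 11 at 24 h and 5 of 11 at 48 h, and none lower (3 and 4 of 10 without Ccr2, which passed through the APAP pools). The shares of all genes called higher were 4.89% and 4.79%. On normalized reads 4 of the 11 were below 1 at 24 h and 2 at 48 h, with median log2 folds of 0.16 and 0.65. Clec4f was below both control pools in both APAP pools. Cd14, called higher after APAP, was also called higher at 48 h than at 24 h between the control pools. Neutrophil markers, of which S100a8 and S100a9 alone reached the mean of 10 and did so through the APAP pools, summed to 2.68 and 3.27 RPM under vehicle and 41.1 and 34.6 after APAP, with Mmp8 at 0 in at least 1 library. The part of these cells in the value of Hmox1 was not tested. The biliverdin reductases, which take the next step, gave no call. Blvra had 54.6, 81.5, 75.0 and 83.4 normalized reads and Blvrb had 898, 687, 856 and 891 normalized reads, with a fold of 1.30 (1.17 to 1.43) for Blvrb at 48 h. Blvrb is abundant in red cells, whose markers summed to 3654, 2471, 2910 and 1585 RPM in the 4 libraries. Of these markers, 2 of 5 were called lower at 48 h, beside 4.99% of all genes.

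Osgin1, an oxidative stress-induced growth inhibitor (GRCm38 chr8:119434124-119446256, plus strand), had 391 and 433 normalized reads under vehicle and 807 and 571 after APAP. It was called higher at 24 h at 2.06 (95% interval 1.82 to 2.34) and was at 1.32 (1.16 to 1.499) at 48 h, with both APAP pools above both controls. Against the control pool of 48 h the fold at 24 h was 1.86, and against both control pools summed 1.96, so that the call was lost.

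From 24 h to 48 h few genes were called, and most of these counts are near the share of all genes. Between the APAP pools none of the 39 genes was called higher at 48 h, beside 2.36% of all genes, and Srxn1 and Sqstm1 were called lower, beside 2.42%. Srxn1 in the APAP pool at 48 h was at 0.322 (95% interval 0.280 to 0.370) of its level at 24 h. To take account of the control pools, the fold at 48 h was divided by the fold at 24 h, with an exact interval from the 4 counts, and a ratio of at least 1.5 in either direction was named. This limit was chosen after values were seen. It was passed downwards by 5 of the 39 genes, beside 6.78% of all genes, and upwards by 2, beside 5.53%.

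The 5 genes whose fold was smaller at 48 h were Srxn1 at 0.406 (0.306 to 0.540), Sqstm1 at 0.574 (0.518 to 0.636), Gsr at 0.612 (0.486 to 0.770), Txnrd1 at 0.611 (0.497 to 0.751) and Osgin1 at 0.638 (0.533 to 0.764). All of them were above their control at 24 h, and 3 of them (Srxn1, Txnrd1 and Osgin1) hold letters shown above. Prdx1 and Slc7a11, which hold them too, had ratios of 0.931 (0.879 to 0.986) and 1.12 (0.0845 to 11.0) and were not among the 5. Sqstm1 had a promoter entry without the letters and Gsr had no entry, and since 17 of 37 genes hold the wider form and Txnrd1 and Slc7a11 were picked for display with these values known, the count supports nothing further. The 2 genes whose fold was larger at 48 h were Sod3 at 1.73 (1.21 to 2.46) and Cbr1 at 1.58 (1.27 to 1.95). By contrast, Gss, Hmox1, Gpx3, Gclc and Cat had ratios of 1.06 (0.763 to 1.47), 1.04 (0.696 to 1.56), 0.907 (0.557 to 1.48), 0.936 (0.774 to 1.13) and 0.983 (0.924 to 1.04), so that a change within these bounds was not detectable at this depth. For Gpx1 the ratio was 0.959 (0.920 to 0.999), a small step whose counting interval just leaves out 1. With library totals its folds were 0.564 at 24 h and 0.571 at 48 h, so the direction of this step rests on the scaling.

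**Figure D3:**
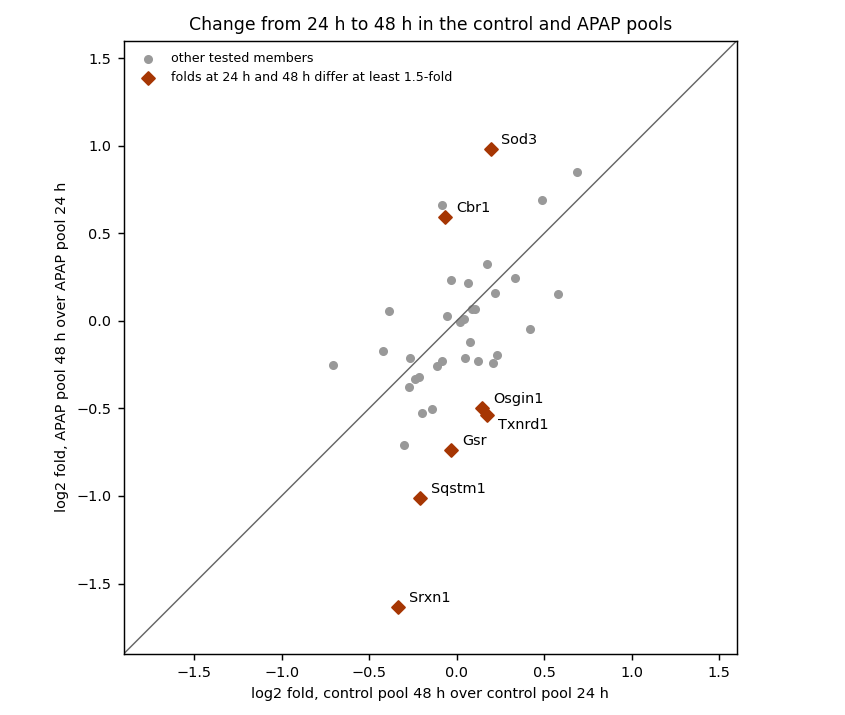
Log2 fold from 24 h to 48 h in the APAP pools (vertical axis) against the same in the control pools (horizontal axis) for the 39 genes judged, with counts under 3 reads taken as 3, with a line where both are equal. Diamonds mark the 7 genes whose APAP folds at 24 h and 48 h differed by at least 1.5-fold with an interval leaving out 1, with Srxn1, Sqstm1, Gsr, Txnrd1 and Osgin1 below the line and Sod3 and Cbr1 above it.

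Other genes of NRF2 and antioxidant defence, 43 in the table of 44 on the list, were mixed as well. Of the 41 judged, 4 were called higher and 4 lower at 24 h (4.89% and 4.99% of all genes), and 3 higher and 4 lower at 48 h (4.79% and 4.99%), with median log2 folds of -0.15 and -0.33. Beside the cystine importer, its heavy chain Slc3a2 had 158 and 140.5 normalized reads under vehicle and 324 and 218 after APAP and was called higher at 24 h at 2.05 (1.68 to 2.51), with 1.55 (1.24 to 1.93) at 48 h. Maff and Chac1 reached the mean of 10 through their APAP pools, and without them 2 of 39 were called higher at each time. Chac1, which degrades glutathione, had 4.55, 7.51, 17.0 and 15.9 normalized reads and a fold of 3.75 (1.25 to 15.1) at 24 h. Maff, the small MAF protein that is not a member of the 42, had 7.96 and 9.65 normalized reads under vehicle and 129 and 44.1 after APAP, an order like that of Srxn1. Abcc4, an efflux pump, had 15.9, 13.9, 26.4 and 43.1 normalized reads and was called higher at 48 h at 3.09 (1.64 to 6.24).

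Lower among these were Me1 and Idh1, further sources of NADPH. Me1, malic enzyme, had 1849.6 and 1408 normalized reads under vehicle and 227 and 188 after APAP, with folds of 0.123 (0.108 to 0.140) and 0.134 (0.115 to 0.155) that were the lowest of the 41 at both times. Idh1 had 1823 and 1439 normalized reads under vehicle and 864 and 940.4 after APAP. It was called lower at 24 h at 0.474 (0.437 to 0.513) and not at 48 h, at 0.654 (0.602 to 0.710). Its call at 24 h was lost against the control pool of 48 h, against both control pools summed and with library totals. The glutathione transferases split. Gsta1 had 92.1 and 69.7 normalized reads under vehicle and 824 and 544 after APAP but belongs to a family of near-identical genes, so that its reads are uncertain. Gstm3 had 587 and 406 normalized reads under vehicle and 169 and 87.2 after APAP and was called lower at both times at 0.289 (0.244 to 0.341) and 0.215 (0.169 to 0.270). Gsta4 at 0.459 (0.393 to 0.536) and Mgst1 at 0.442 (0.431 to 0.453) were called lower at 48 h, and Ggt6 at 0.460 (0.344 to 0.611) at 24 h.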

How the data were processed

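RNA pooled per condition was sequenced as 4 MACE libraries of 3′ mRNA ends. The authors removed duplicate reads by unique molecular identifiers, trimmed and mapped them to mm10 (GRCm38), and deposited the read count per gene from HTSeq, without normalization. Mapper, versions and strand setting are not given in the sources used here. The same table holds the authors' 4 columns of scaled values (RPM) and their log2 ratios, p-values and FDR, which were not used. Size factors came from DESeq2 1.42.0 (R 4.3.3) over 16338 genes with reads in all 4 libraries and were 0.880, 0.933, 1.17 and 1.07. Folds with a floor of 3 reads, Clopper-Pearson intervals (95%) and exact conditional intervals for ratios of folds were computed in Python 3.11.15 with scipy 1.17.1. The calling was tested on simulated counts that held planted changes and counting error only. That test does not cover differences between mice or pools. A ratio is printed without the floor. Alternatives were edgeR 4.0.16 TMM, library totals, other floors, filters, control pools and thresholds. Gene positions and ends came from GENCODE (GRCm38), where ends of 300 bases at least 95% identical over at least 100 bases were taken as shared, and promoters from RefSeq. Libraries were grouped by their labels. Named genes were all members, and of the other NRF2 genes those called after APAP. The members, lists and tests were chosen with earlier results of these data known.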

Additional observations from a re-analysis of the deposited data

Results flagged for a closer look

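The fold of Srxn1 after APAP differed between 24 h and 48 h. Divided by the fold at 24 h, the fold at 48 h was 0.406 (0.306 to 0.540), from 171, 135, 769 and 248 normalized reads in the control pools at 24 h and 48 h and the APAP pools at 24 h and 48 h. This was the only one of the 39 genes judged whose folds differed by at least 2-fold with an interval leaving out 1. The comparison is between 4 libraries and covers counting error only, and whether the difference holds over mice was not tested.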

How the results depend on the processing

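Counting error was small for abundant genes and wide for Slc7a11, Akr1b8 and Nqo1, and differences between mice or pools could not be seen. Of 848 values of single genes under alternatives, 753 lay inside their counting interval, 95 outside, and 0 called values changed direction. Library totals turned the direction of Keap1, Prdx6 and Blvrb at 24 h and of 6 genes near 1 at 48 h (Nfe2l2, Sqstm1, Gpx4, Txnrd1, Aox1 and Ugdh), and TMM that of Prdx6 at 24 h. The control pool of the other time turned 6 genes at 24 h (Keap1, Gpx4, Txn1, Aox1, Blvra and Blvrb) and 7 at 48 h (Mafk, Gpx4, Txnrd1, Prdx1, G6pdx, Taldo1 and Blvrb), and both summed turned 2 (Gpx4 and Blvrb) and 4 (Mafk, Gpx4, Txnrd1 and Prdx1). With the other control pool 3 calls changed at 24 h (Osgin1 and Akr1b8 lost, G6pdx gained) and 5 at 48 h (Gpx1, Gpx3 and Hmox1 lost, Akr1b8 and Ephx1 gained). With library totals Gsr at 24 h, at 2.21, was called. A floor of 10 reads ended the call of Slc7a11 at 24 h, at 1.20. No paired analysis was possible because each group had 1 library. No replicate could be left out for the same reason.

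Below, counts are called higher and lower. Apart from the order of the libraries with library totals, no share over all genes was computed under these alternatives. The counts therefore describe the listed genes only and cannot be set against the transcriptome. With TMM, 0 of the 39 genes judged were lower at 24 h. With library totals, 0 were lower at 24 h, 7 higher and 0 lower at 48 h, 1 higher (Sod3) and 1 lower (Srxn1) between the APAP pools, 6 lay below both control pools, and the median log2 fold at 24 h was 0.24. Against both control pools summed, 1 (Cat) was lower at 48 h. At 1.5-fold the counts were 12 and 6 at 24 h, 7 and 6 at 48 h, 4 and 4 between the APAP pools and 1 and 1 between the controls. At 5-fold they were 0 and 0 at 24 h, 1 and 0 at 48 h and 0 lower between the APAP pools. With the interval bound at 2-fold they were 2 (Gss and Srxn1) and 0 at 24 h, 2 (Gss and Slc7a11) and 1 at 48 h and 1 lower between the APAP pools. A ratio between the times of at least 2 left 1 gene lower and 0 higher. For the other NRF2 genes, library totals gave 2 lower at 24 h and 5 higher and 2 lower at 48 h, a mean of at least 50 gave 2 and 1 higher at 24 h and 48 h and 0 lower between the APAP pools, the other control pool gave 7 lower at 24 h, and no condition on the interval gave 5 higher at 48 h and 2 lower between the APAP pools. At 1.5-fold they gave 8 lower at 24 h, 5 and 9 at 48 h, 4 and 4 between the APAP pools and 3 higher between the controls, at 5-fold 2 and 1 at 24 h, 1 and 1 at 48 h and 0 lower between the APAP pools, and with the interval bound at 2-fold 2 and 2 at 24 h. The remaining counts were within 1.5 times those reported.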
